A study of Mus musculus with 9 samples.

Results

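*Foxo1*, *Foxo3*, *Creb5*, *Sox5*, *Sox6* and *Dlx3* encode transcription factors. They were listed by symbol as factors of the synovial lining and are 6 of the 54534 features counted in each library. Their UMIs (unique molecular identifiers, which count captured RNA molecules) were read in all 9 single-cell libraries and in 11 cell classes gated by marker genes, none of which is among the 6 genes. The name of lining factors matched *Foxo1*, *Creb5*, *Sox5* and *Dlx3*, whose levels were highest in fibroblast-like synoviocytes (FLS). The data went against it for the other 2, since *Sox6* was highest in chondrocyte-like cells and *Foxo3* was at like levels in lining and sublining fibroblasts. All 6 genes were chosen with earlier results of these data known, so a match with the name is no test of it.

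Knee joint cells came from *Gdf5-Cre;Tom;Pdgfrα-H2BGFP* mice aged 11 to 12 weeks, and all groups carried the same 3 alleles. Cre under *Gdf5* regulatory sequence acts in the embryonic joint interzone, so that Tom+ cells descend from it, and Tom-GFP+ cells are fibroblasts with *Pdgfrα* reporter signal and no Tom label. The groups were Tom+ steady state (n = 2 libraries), Tom+ injured (n = 4), Tom-GFP+ steady state (n = 1) and Tom-GFP+ injured (n = 2), each library from 1 mouse, and injured knees were taken 6 days after a scratch through the cartilage of the trochlear groove. Tom-GFP+ mice were matched to Tom+ mice, but the sources used here do not say which. P-values measure the spread between these libraries, and the Tom-GFP+ steady-state library has no replicate, so tests with it borrow the spread of the other groups.

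FOXO factors are forkhead proteins that PI3K and AKT signalling keeps out of the nucleus, and they switch on genes of stress resistance, metabolism and cell cycle arrest. *Creb5* encodes a leucine zipper protein of the CREB and ATF family that binds cyclic AMP response elements (CRE) and is known to drive lubricin (*Prg4*) in superficial cartilage. *Sox5* and *Sox6* are SoxD factors that work beside Sox9 in chondrocytes, and *Dlx3* encodes a homeodomain factor known from skin, hair, tooth and bone. The synovial lining is a thin layer of FLS, which secrete lubricin and hyaluronan, above a sublining of *Thy1*+ fibroblasts.

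On GRCm38 (GENCODE vM21) the genes lie at chr3:52268336-52353221 (*Foxo1*, plus strand), chr10:42181841-42276755 (*Foxo3*, minus), chr6:53287270-53700376 (*Creb5*, plus), chr6:143828425-144781977 (*Sox5*, minus), chr7:115470872-116038796 (*Sox6*, minus) and chr11:95120119-95125296 (*Dlx3*, plus). *Sox5* is overlapped by 5 antisense genes (*Sox5os1* to *Sox5os5*), *Sox6* by *Sox6os* and *Gm45025*, and *Foxo1* by *Gm20402*. The strand setting of the counting is not given in the sources used here, so their reads cannot be told apart with certainty. RefSeq promoter windows (GRCm38.p6, 250 bases before a start) were matched for 5 of the 6 genes. They are shown for *Creb5*, *Foxo1* and *Sox5*, whose levels led in the lining, and for the *Sox6* start with motif matches, on the gene's strand, less any base of the gene's own exons. Capitals mark a match to TGACGTCA (CRE), TGTTTAC (FOXO), AACAAT (SOX) or TAATTA (homeodomain) on either strand.
Creb5, chr6:53287053-53287269, plus strand: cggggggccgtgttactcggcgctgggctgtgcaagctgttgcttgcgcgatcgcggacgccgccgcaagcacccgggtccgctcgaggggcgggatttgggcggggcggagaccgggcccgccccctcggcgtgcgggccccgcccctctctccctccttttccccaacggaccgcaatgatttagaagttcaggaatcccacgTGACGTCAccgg
Foxo1, chr3:52268087-52268335, plus strand: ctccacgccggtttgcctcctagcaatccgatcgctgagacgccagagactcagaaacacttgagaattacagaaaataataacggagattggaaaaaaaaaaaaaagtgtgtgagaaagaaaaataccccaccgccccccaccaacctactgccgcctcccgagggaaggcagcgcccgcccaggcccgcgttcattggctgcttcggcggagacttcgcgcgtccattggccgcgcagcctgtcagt
Sox5, chr6:143947107-143947356, minus strand, an internal start of the gene: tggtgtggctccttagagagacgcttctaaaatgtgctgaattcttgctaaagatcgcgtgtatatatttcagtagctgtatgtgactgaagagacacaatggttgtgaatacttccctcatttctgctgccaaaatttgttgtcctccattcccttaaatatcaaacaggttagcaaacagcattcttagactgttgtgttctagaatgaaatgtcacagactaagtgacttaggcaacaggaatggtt
Sox6, chr7:115824711-115824960, minus strand, an internal start of the gene: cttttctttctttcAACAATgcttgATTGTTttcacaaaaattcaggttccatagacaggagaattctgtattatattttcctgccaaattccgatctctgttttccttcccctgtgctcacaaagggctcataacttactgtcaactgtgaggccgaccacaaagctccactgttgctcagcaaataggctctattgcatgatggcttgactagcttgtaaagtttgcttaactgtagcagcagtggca

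RefSeq gave 2 windows for *Creb5*, 6 for *Sox6* and 1 each for *Foxo1*, *Foxo3* and *Sox5*, and all were searched. The *Creb5* window shown, at the gene's annotated start, holds 1 CRE, and the *Sox6* window, shown for its matches, holds 2 SOX matches. The remaining windows of *Creb5* and *Sox6* and that of *Foxo3* hold none. CRE letters are in 1.55% of 32851 promoter windows of this length, and FOXO, SOX and homeodomain letters are in 3.17%, 9.42% and 4.84%. No match was found in the *Foxo1* and *Sox5* windows shown. These matches describe letters and do not show binding.

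Of 5161 barcodes, 4788 passed the filters, and 14 barcodes occurred in more than 1 library. Library totals ran from 2866464 to 15033902 UMIs. The median depth per cell was 8050.5 to 8647 UMIs in steady-state libraries and 12223 to 18567 in injured ones, so depth moves with injury. In sublining-like cells the Tom reporter was at 304 to 683 CPM in Tom+ and 1.69 to 6.07 CPM in Tom-GFP+ libraries, as their labels say. The files of the 3 steady-state libraries and of Tom+ injured 1 have 2 feature columns, and the other 5 have 3. The classes used most were FLS-like cells (714), *Prg4*+ *Clic5*-low lining-like cells (117), *Thy1*+ sublining-like fibroblasts (2031) and injury-induced-like fibroblasts (812), which carry *Lrrc15* and other genes of the injured joint. For each library and class with at least 10 cells, UMIs were added up and scaled to CPM (UMIs of a gene as a share of all UMIs of the sum, times 1e+06), so that n is a number of libraries. Levels in CPM are compared between classes and not between genes.

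*Foxo1* was at 225 CPM ± 38.6 (SD, n = 8) in FLS-like cells. It was at 249 and 274 CPM in Tom+ steady-state FLS-like cells, at 145, 239, 205 and 244 CPM in Tom+ injured 1 to 4, and at 221 and 222 CPM in the Tom-GFP+ injured libraries. In sublining-like fibroblasts it was at 31.9 CPM ± 14.5 (n = 9), with 20.1 CPM as the lowest and 57.6 CPM as the highest library. The ranges of both classes were apart. Within each library the log2 level was 2.97 ± 0.41 (n = 8) above that of sublining-like cells. No p is given for any difference of lining classes in level, because *Sox5*, *Foxo1* and *Creb5* had been picked for the lining on these samples.

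Next in order for *Foxo1* stood chondrocyte-like cells at 73.8 CPM ± 44.7 (n = 5), whose range began at 16.7 CPM and overlapped those of the classes after it other than immune-like cells. Osteoblast-like (33.8 CPM), *Prg4*+ *Clic5*-low (31.2 CPM), tenocyte-like (30.4 CPM) and mural-like cells (22.3 CPM) had overlapping ranges with sublining-like cells. Injury-induced-like fibroblasts, at 16.6 CPM ± 5.72 (n = 6), and immune-like cells, at 1.63 CPM ± 2.82 (n = 3), came last. Thus *Foxo1* in the *Prg4*+ lining cells that lack *Clic5* was at the level of the sublining and not of FLS. Among the 4 Tom+ injured libraries it was at 7.18, 40.9, 43.8 and 32.9 CPM in those cells, against 145 to 244 CPM in FLS-like cells of the same libraries.

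*Creb5* was at 343 CPM ± 93.2 (n = 8) in FLS-like cells. It was at 477 and 470.5 CPM in the Tom+ steady state, at 360.1, 364, 251 and 297 CPM in Tom+ injured 1 to 4, and at 229 and 297 CPM in Tom-GFP+ injured. *Prg4*+ *Clic5*-low cells followed at 140.0, 220.5, 121 and 191 CPM in the 4 Tom+ injured libraries (mean 168 CPM ± 45.9). These values lay below the lowest FLS-like value. Sublining-like fibroblasts were at 112 CPM ± 32.8 (n = 9), and their highest value, 154 CPM, overlapped with the *Prg4*+ *Clic5*-low class. Chondrocyte-like cells were at 171 CPM in Tom+ steady state and at 36.7 and 168 CPM in Tom+ injured libraries. In Tom-GFP+ steady state and injured they were at 9.69 and 0 CPM. In 2 of 5 libraries they were above the sublining-like cells. The paper describes steady-state Tom+ chondrocytes as superficial zone cells and Tom- ones as likely from growth plate. With at least 5 cells, the lineage difference after injury did not pass (log2 6.77, SE 1.87, adjusted p = 0.485, edgeR). The within-library log2 difference to sublining-like cells was 1.67 ± 0.17 (n = 8) in FLS-like and 0.83 ± 0.35 (n = 4) in *Prg4*+ *Clic5*-low cells, with the same sign in every library. In sublining-like cells gated as universal F4 fibroblasts (*Pi16*, *Dpp4*) *Creb5* was at 188 CPM ± 64.3 (n = 9), against 90.8 CPM ± 29.1 (n = 9) in sublining-like cells outside F1 to F6 and 72.9 CPM ± 13.2 (n = 7) in F2, as a description with no test.

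*Sox5* was at 237 CPM ± 34.5 (n = 8) in FLS-like cells. It was at 196 and 201 CPM in Tom+ steady state, at 227, 298, 272 and 228 CPM in Tom+ injured 1 to 4, and at 229 and 245 CPM in Tom-GFP+ injured. Chondrocyte-like cells came second at 135 CPM ± 44.4 (n = 5), with a highest value of 192 CPM that did not reach the FLS-like range. *Prg4*+ *Clic5*-low cells were at 101, 118, 126 and 59.2 CPM, which overlapped with chondrocyte-like cells. Sublining-like fibroblasts were at 26.0 CPM ± 13.4 (n = 9) and osteoblast-like cells at 55.6 CPM ± 25.7 (n = 5). The within-library log2 difference to sublining-like cells was 3.14 ± 0.49 in FLS-like (n = 8) and 1.60 ± 0.40 in *Prg4*+ *Clic5*-low cells (n = 4). Of these 3 factors, *Sox5* and *Creb5* were above the sublining in both lining classes in each library with at least 10 cells, and *Foxo1* in FLS-like cells. For *Prg4*+ *Clic5*-low cells these are Tom+ injured libraries alone (n = 4), and *Creb5* in their few steady-state cells, given below, was under the sublining.

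*Dlx3* had the largest log2 step of the 6 genes between FLS-like and sublining-like cells. It was at 139 and 114 CPM in Tom+ steady-state FLS-like cells, at 113, 98.3, 57.8 and 61.5 CPM in Tom+ injured 1 to 4 and at 57.8 and 49.9 CPM in Tom-GFP+ injured. In sublining-like cells its mean was 4.48 CPM ± 4.78 (n = 9), with 0 UMIs in Tom-GFP+ injured 1 and 15.6 CPM in Tom+ injured 1. The log2 difference within a library was 4.18 ± 1.13 (n = 8, pseudocount 1 CPM). *Prg4*+ *Clic5*-low cells were at 20.4 CPM ± 3.58 (n = 4), between both. No *Dlx3* UMI was found in mural-like, adipocyte-like or immune-like sums. In mural-like cells this was 0 of 744800 UMIs in 2 libraries, where a floor of 3 UMIs over both allows 4.03 CPM, against 10.5 CPM in their sublining-like cells, so the level was at least 2.61-fold lower.

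*Sox6*, the partner of *Sox5* in cartilage, followed another order. Chondrocyte-like cells led with 42.8 CPM in Tom+ steady 2, 29.1 CPM in Tom-GFP+ steady state, 63.9 and 47.7 CPM in Tom+ injured 3 and 4, and 41.6 CPM in Tom-GFP+ injured 1. Osteoblast-like cells were at 22.3 CPM ± 13.8 (n = 5), and FLS-like cells at 11.6 CPM ± 3.87 (n = 8), with 3.86 CPM as the lowest and 15.0 CPM as the highest library. The ranges of chondrocyte-like and FLS-like cells were apart. Sublining-like cells were at 2.07 CPM ± 1.14 (n = 9), and the within-library log2 difference of FLS-like cells from them was 1.94 ± 0.59 (n = 8). The remaining SoxD gene, *Sox13*, was at 2.75 CPM ± 3.20 in FLS-like cells and 1.78 CPM ± 1.12 in sublining-like cells, while *Sox9* was at 836 CPM ± 377 in chondrocyte-like cells and 26.1 CPM ± 22.7 in FLS-like cells.

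*Foxo3* had no such step. It was at 23.2 and 13.5 CPM in Tom+ steady-state FLS-like cells, 19.1, 15.6, 13.8 and 10.9 CPM in Tom+ injured 1 to 4 and 10.3 and 18.0 CPM in Tom-GFP+ injured, against 9.77 to 25.7 CPM over the 9 sublining-like sums. The log2 difference within a library was -0.08 ± 0.62 (n = 8), with FLS-like cells above in 5 of 8. Osteoblast-like cells were highest, at 39.8 CPM ± 16.7 (n = 5), but every class overlapped with its neighbour in the order. Chondrocyte-like cells were at 32.8 CPM ± 46.3 (n = 5), a mean that rests on 112 CPM in Tom+ injured 3, while 2 libraries had 0 UMIs.

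**Figure D1:**
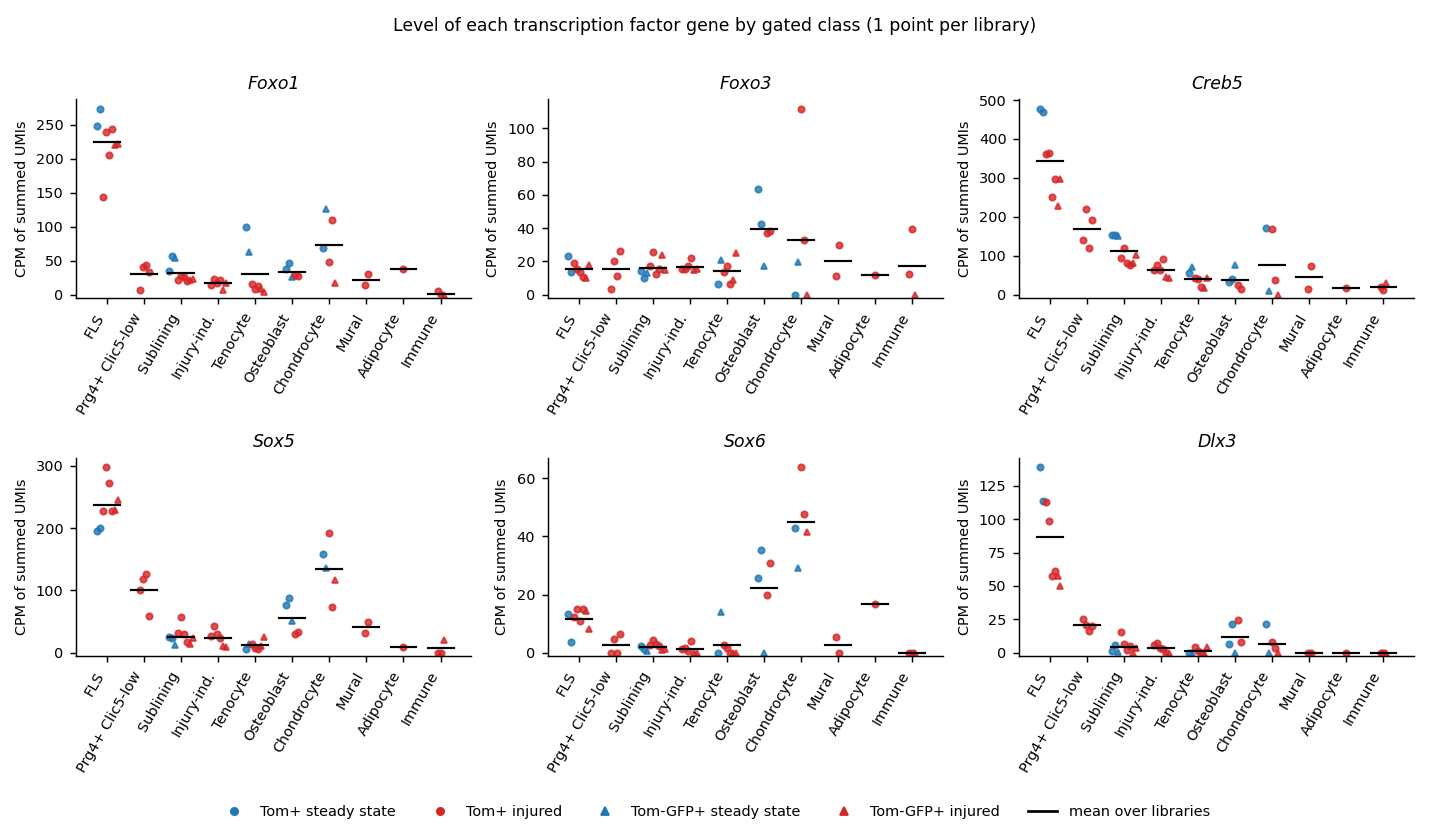
Level of each gene in CPM of summed UMIs (y axis, linear, a scale for each gene) in 10 marker-gated classes (x axis). Each point is 1 library, circles Tom+ and triangles Tom-GFP+, blue steady state and red injured, and the line is the mean over libraries. *Foxo1*, *Creb5*, *Sox5* and *Dlx3* are highest in FLS-like cells, *Sox6* in chondrocyte-like cells (45.0 CPM), and *Foxo3* shows no step between FLS-like (15.6 CPM) and sublining-like cells (16.3 CPM).

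In single cells, depth differed between classes, with medians of 17366 UMIs in FLS-like and 9708 in sublining-like cells. Each cell was therefore thinned to 3000 UMIs, which left out 2 FLS-like and 69 sublining-like cells. A UMI of *Creb5* was then found in 60.1% of 712 FLS-like and 26.5% of 1962 sublining-like cells. For *Sox5* the shares were 50.4% and 6.17%, for *Foxo1* 44.2% and 10.2%, and for *Dlx3* 21.5% and 0.561%. Unthinned, the FLS-like shares were 97.2%, 93.8%, 83.8% and 64.7%. Immune-like cells (89 cells, median 9582 UMIs, 15 left out), which serve as the level of free RNA, held a UMI of *Creb5* in 4.49%, of *Foxo1* and *Sox5* in 1.12% each, and of *Dlx3* in 0 of 89, which allows a share of up to 3.37%. That limit is too wide to set the sublining share of *Dlx3* against it. Intervals and floors cover counting error alone.

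A UMI of *Foxo3* was found in 4.78% of FLS-like and 8.99% of immune-like cells. An immune-like sum reached 39.7 CPM of *Foxo3*, above the highest FLS-like (23.2 CPM) and sublining-like sums (25.7 CPM). The immune-like share can therefore not be taken as free RNA for this gene, and the *Foxo3* shares were not read further. *Sox6* was at 3.65% in FLS-like and 13.1% in chondrocyte-like cells, with exact 95% binomial (Clopper-Pearson) intervals of 2.40% to 5.30% and 7.34% to 21.0%. *Prg4*+ *Clic5*-low cells held *Creb5* in 36.8%, *Sox5* in 30.7% and *Foxo1* in 9.65% of 114 cells. Of the 6 genes, 1.85 were detected per FLS-like cell on average and 0.482 per sublining-like cell at this depth. Both *Foxo1* and *Sox5* were found in 22.1% of FLS-like and 0.866% of sublining-like cells.

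**Figure D2:**
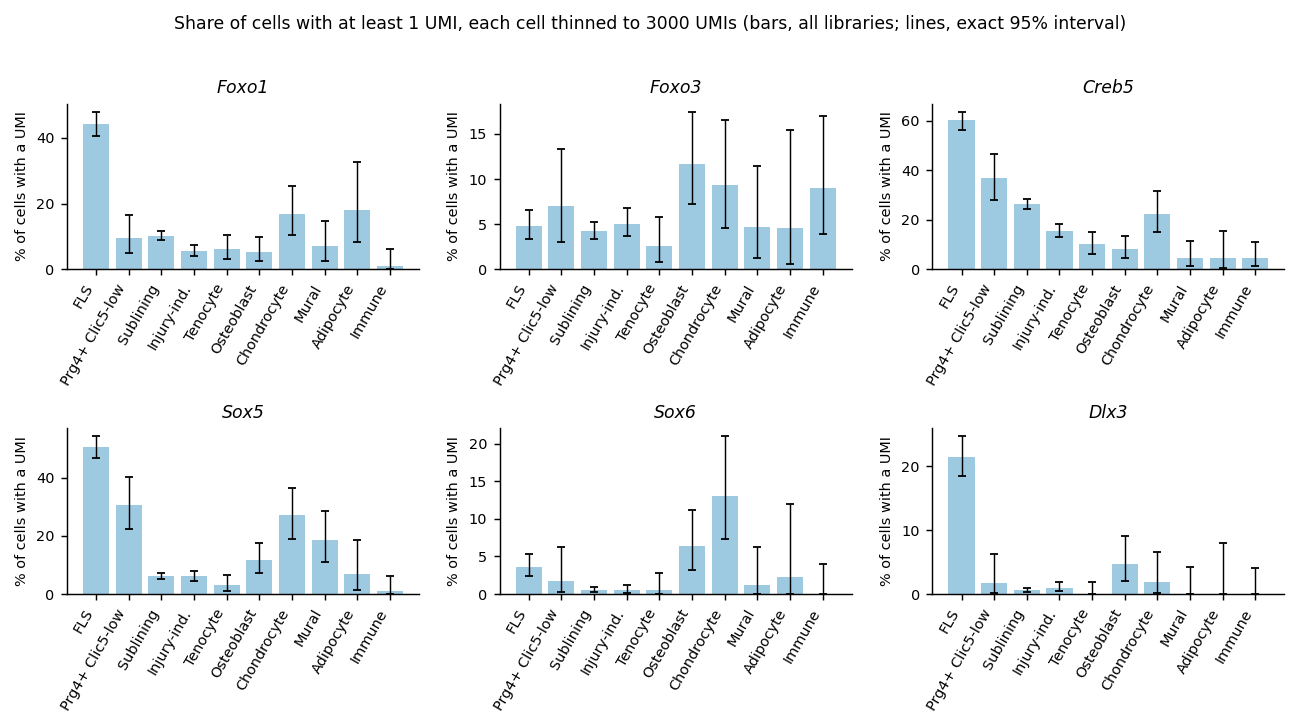
Percent of cells with at least 1 UMI of each gene (y axis, from 0, a scale for each gene) by class (x axis), all libraries together, each cell thinned to 3000 UMIs, with exact 95% intervals for counting error as lines. For *Foxo1* the FLS-like bar is at 44.2% and the sublining-like bar at 10.2%, and for *Sox6* the tallest bar is that of chondrocyte-like cells at 13.1%.

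Outside the lining, the classes were tested against sublining-like fibroblasts of the same library by edgeR's quasi-likelihood test with library as a block and Benjamini-Hochberg adjustment over 12548 genes, at an adjusted p of 0.05. Chondrocyte-like cells were higher in *Sox6* by 20.5-fold (log2 4.36, SE 0.45, adjusted p = 3.86e-11), in *Sox5* by 5.25-fold (log2 2.39, SE 0.28, adjusted p = 1.77e-08) and in *Foxo1* by 2.03-fold (log2 1.02, SE 0.34, adjusted p = 0.0214). With 3 of 6 genes called, the background was 26.9% of all genes. The *Foxo1* call ended without Tom+ injured 4 (log2 0.62, adjusted p = 0.315), with a stricter cell filter (0.94, adjusted p = 0.0879) and without the cells of the top 5% of doublet scores (1.01, adjusted p = 0.0758).

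Osteoblast-like cells were higher in *Sox6* (log2 3.33, SE 0.44, adjusted p = 4.42e-08), *Foxo3* (log2 1.27, SE 0.33, adjusted p = 0.00427) and *Sox5* (log2 0.83, SE 0.30, adjusted p = 0.0497), and lower in *Creb5* (log2 -2.18, SE 0.36, adjusted p = 3.78e-05). These are 4 of 6 genes beside a background of 16%. The values were 25.5, 35.4, 0, 19.7 and 30.7 CPM for *Sox6* and 63.9, 42.5, 17.1, 37.0 and 38.3 CPM for *Foxo3* in Tom+ steady 1 and 2, Tom-GFP+ steady state and Tom+ injured 1 and 2. *Sox5* lost its call in 6 of the alternatives and without any of 6 libraries, with a log2 difference of 0.39 and an adjusted p of 0.579 without Tom+ steady 2. *Dlx3*, at 12.0 CPM ± 10.5, did not pass (log2 1.13, SE 0.46, adjusted p = 0.0892).

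Tenocyte-like cells were lower in *Creb5* (log2 -1.44, SE 0.29, adjusted p = 0.000948), at 41.4 CPM ± 18.8 (n = 7), and in *Sox5* (log2 -1.09, SE 0.34, adjusted p = 0.0361), at 12.2 CPM ± 6.64, so that 2 of 6 genes were called beside 8.17% of all genes. With classes taken from clusters, neither passed (*Creb5* -0.58, adjusted p = 0.0626, and *Sox5* -0.06, adjusted p = 0.955). The *Sox5* call also ended without any one of the Tom+ injured libraries (adjusted p = 0.0646 to 0.21). Mural-like cells were lower in *Creb5* (log2 -1.89, SE 0.53, adjusted p = 0.0126) and in *Dlx3* (adjusted p = 0.0361 at 0 UMIs), 2 of 6 genes beside a background of 13.5%. Both calls rest on 2 libraries and were lost without Tom+ injured 1 (adjusted p = 0.542 and 0.53).

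Injury-induced-like fibroblasts differed from sublining-like ones in 0 of the 6 genes by edgeR, beside 10.1% of all genes, and DESeq2 called 0. An unadjusted p below 0.05 was held by 3 of the 6 and by 2839 of 12548 genes. *Foxo1* was nearest the threshold (log2 -0.68, SE 0.24, adjusted p = 0.0716), with a level of 16.6 CPM ± 5.72 (n = 6). With classes taken from clusters 4 of the 6 genes were lower (*Creb5* log2 -1.41, *Foxo1* -0.93, *Sox5* -1.13 and *Dlx3* -1.97).

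**Figure D3:**
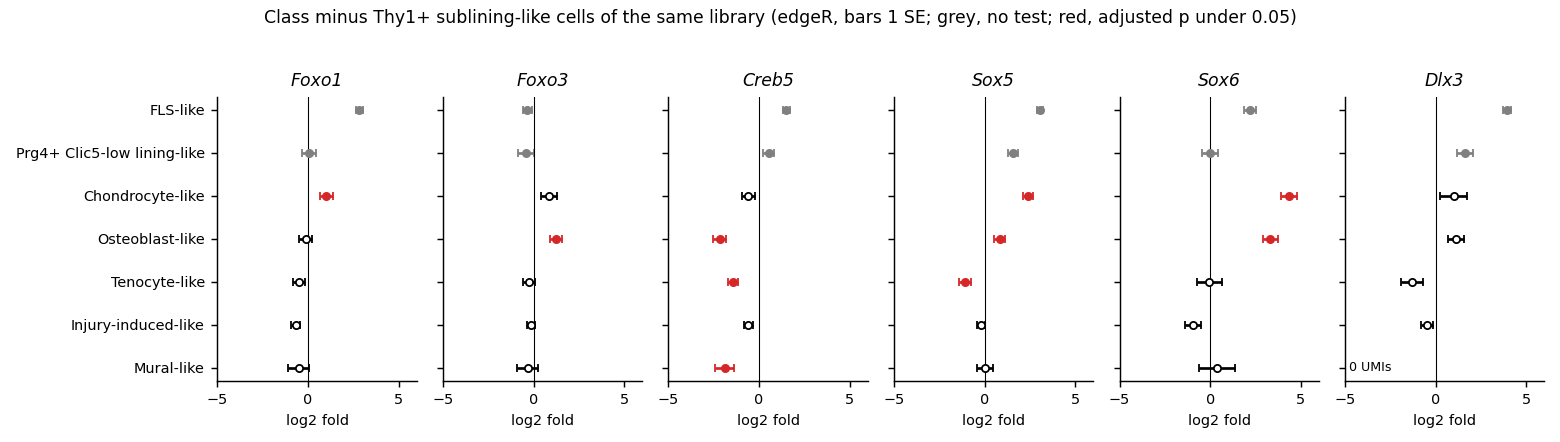
Log2 difference of each class from *Thy1*+ sublining-like cells of the same library (x axis) by class (y axis), 1 panel for each gene, with bars of 1 SE from edgeR. Red points passed an adjusted p of 0.05, open points did not, and grey points (lining classes) were given no test. *Sox6* and *Sox5* stand right of 0 in chondrocyte-like and osteoblast-like cells, and *Creb5* left of 0 in osteoblast-like, tenocyte-like and mural-like cells.

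The comparison of steady state and injury asked which of these factors changed inside a class. In Tom+ sublining-like fibroblasts *Foxo1* and *Creb5* were lower after injury. *Foxo1* was at 35.4 and 57.6 CPM in the steady state and at 21.6, 27.2, 25.8 and 20.1 CPM in Tom+ injured 1 to 4, with no overlap. The log2 fold change was -0.99 (SE 0.22, adjusted p = 0.0142, edgeR). *Creb5* was at 154 and 153 CPM before and at 94.8, 119, 80.3 and 77.02 CPM after injury, again with no overlap (log2 -0.74, SE 0.19, adjusted p = 0.0290). These are 2 of 6 genes tested, beside 11.1% of the 13341 genes tested. *Foxo3* (log2 0.58, adjusted p = 0.280), *Sox5* (0.49, 0.497), *Sox6* (0.64, 0.559) and *Dlx3* (0.91, 0.584) did not pass, and the groups of all 4 overlapped. How many of all genes had groups without overlap was not counted.

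Both calls depended on the processing. With classes taken from clusters *Foxo1* did not pass (log2 -0.97, adjusted p = 0.0756). *Creb5* did not pass with file format as a block (log2 -0.73, adjusted p = 0.109), where both steady-state and 1 of 4 injured libraries have 2 columns. In the libraries of the 2-column format alone, 2 against 1, neither passed (adjusted p = 0.127 for *Foxo1* and 0.0807 for *Creb5*). Without Tom+ steady 2 the *Foxo1* call was lost (log2 -0.63, adjusted p = 0.237), and the *Creb5* call was lost without Tom+ steady 1 (adjusted p = 0.160), Tom+ steady 2 (0.130), Tom+ injured 3 (0.0687) or Tom+ injured 4 (0.0743). The share of universal F4 cells among sublining-like cells also moved, from 26.9% and 27.0% in Tom+ steady state to 16.3%, 14.4%, 17.2% and 18.5% in Tom+ injured 1 to 4. Inside F4 cells *Creb5* was lower after injury (log2 -0.94, adjusted p = 0.0263) and *Foxo1* did not pass (-0.72, adjusted p = 0.311). In the other sublining-like cells *Foxo1* was lower (-1.07, adjusted p = 0.0121) and *Creb5* did not pass (-0.47, adjusted p = 0.182).

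Other measures moved with injury in the same sums. The summed level of the 6 markers that gate injury-induced-like cells ran from 266 to 288 CPM in Tom+ steady-state and from 2479 to 4519 CPM in Tom+ injured sublining-like cells, and that of the 6 FLS markers from 473 to 568 CPM and from 895 to 2556 CPM. Sublining markers summed to 10511 and 10551 CPM in steady state and to 5589 to 10843 CPM after injury. Cycling cells made up 0% in steady state and 1.21% to 13.01% after injury. Their part in the result was not tested. Fewer molecules per cell and fewer cells that express a gene cannot be told apart in these sums.

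The Tom-GFP+ sublining-like cells gave values on the same side. *Foxo1* was at 54.7 CPM in the steady-state library and 21.7 and 23.1 CPM after injury (log2 -1.29, SE 0.31, adjusted p = 0.0643), and *Creb5* was at 150.0 CPM and at 80.5 and 102 CPM (log2 -0.72, SE 0.28, adjusted p = 0.223). By edgeR 0 of 6 genes passed, beside 1.34% of all genes, and DESeq2 called 0. An unadjusted p below 0.05 was held by 2 of the 6 and by 2104 of 13341 genes. The difference of the injury effect between Tom+ and Tom-GFP+ was called for 0 of 6 genes and 0% of 13341 genes. At an unadjusted p under 0.05 it held 0 of the 6 and 329 of all genes, and 0 of the 6 and 2 of all genes passed by DESeq2. For *Foxo1* it was 0.30 (SE 0.39) and for *Creb5* -0.02 (SE 0.35). The universal F4 share was 27.0% in the Tom-GFP+ steady-state and 28.0% and 24.1% in the injured libraries.

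In FLS-like cells of the Tom+ lineage, 0 of 6 genes passed by edgeR, beside 3.02% of 11220 genes, and DESeq2 called 0. An unadjusted p below 0.05 was held by 2110 of all genes and by 2 of the 6. Those were *Creb5*, at 477 and 470.5 CPM before and 251 to 364 CPM after injury (log2 -0.49, SE 0.18, adjusted p = 0.153), and *Sox5*, at 196 and 201 CPM before and 227 to 298 CPM after (log2 0.46, SE 0.18, adjusted p = 0.182). The groups of each did not overlap. The same held for *Foxo1*, at 249 and 274 CPM before and 145 to 244 CPM after injury. It also held for *Dlx3*, at 113.8 and 139 CPM before and 57.8 to 113.2 CPM after, where the groups nearly met. The share of all genes whose groups did not overlap was not counted, so the lack of overlap is no result about these genes. *Dlx3* (log2 -0.52, SE 0.27, adjusted p = 0.335), *Foxo1* (-0.24, SE 0.21, 0.598), *Sox6* (0.90, SE 0.55, 0.419) and *Foxo3* (-0.15, SE 0.43, 0.925) were nearer to 0 or had wide errors. The 2 steady-state sums rest on 20 and 34 cells. In data simulated for this comparison at a set dispersion of 0.1, 3.23% of genes changed 2-fold and 43.6% of genes changed 4-fold were recovered. Of all genes called in that simulation, 10.2% had not been changed. That dispersion was not estimated from these libraries, so the recovery for the 6 genes may differ.

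**Figure D4:**
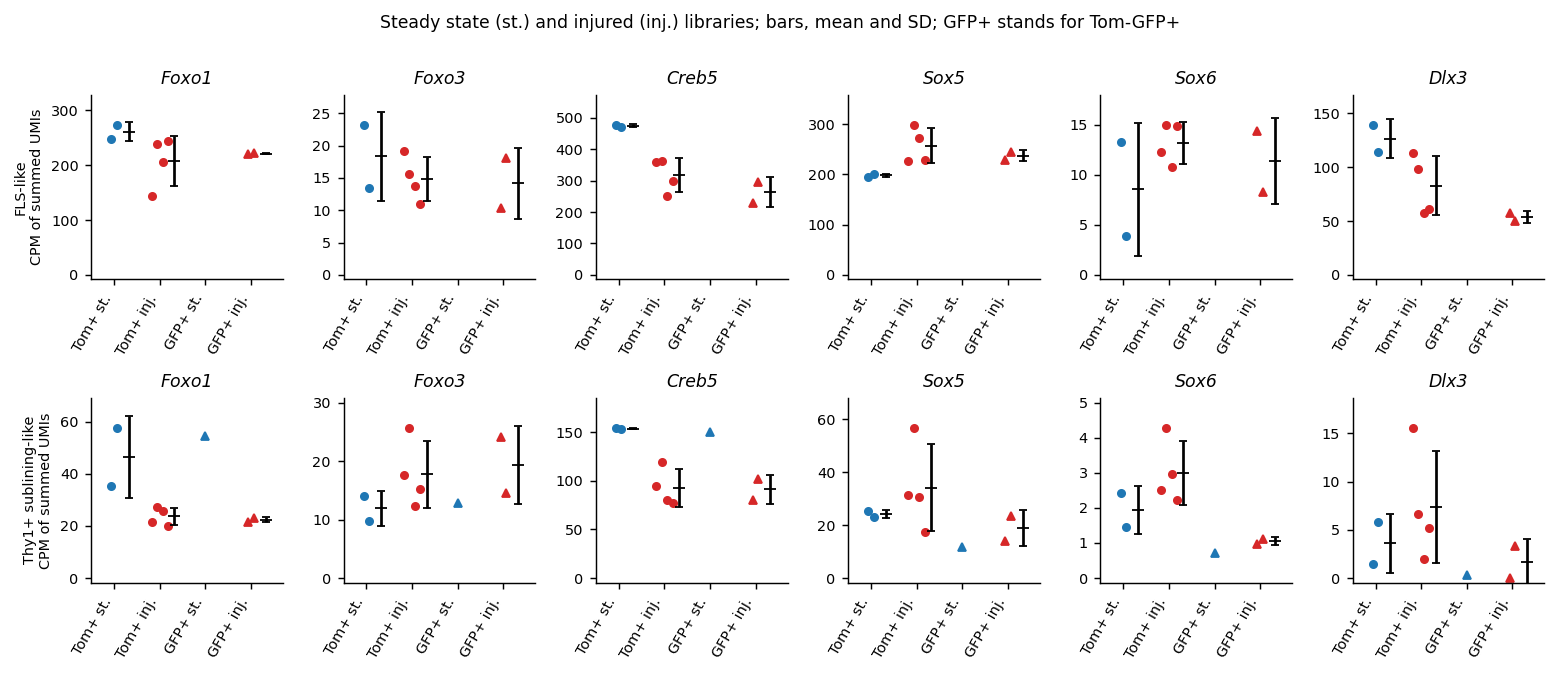
Level of each gene in CPM of summed UMIs (y axes from 0) in FLS-like (upper row) and *Thy1*+ sublining-like cells (lower row) by lineage and state (x axis). Points are libraries, and bars are the mean and SD over libraries where there are at least 2. In sublining-like cells *Foxo1* and *Creb5* of the injured libraries lie below all steady-state libraries in both lineages. In Tom+ FLS-like cells *Creb5* lies at 251 to 364 CPM after injury and at 470.5 and 477 CPM before, a change that did not pass (adjusted p = 0.153, edgeR). Tom-GFP+ has no steady-state FLS-like sum of at least 10 cells.

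A direct test of whether the injury effect in Tom+ differed between FLS-like and sublining-like cells called 0 of 6 genes by edgeR, beside 1.39% of 12920 genes. DESeq2 called 0 of the 6. An unadjusted p below 0.05 was held by 1438 of all genes and by 2 of the 6. *Foxo1* gave a difference of 0.80 (SE 0.24, adjusted p = 0.108) and *Dlx3* of -1.27 (SE 0.58, adjusted p = 0.447). Leaving out Tom+ injured 1 brought *Foxo1* past the threshold (0.91, adjusted p = 0.00531).

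*Prg4*+ *Clic5*-low cells had 5 and 7 cells in the steady-state Tom+ libraries, under the minimum of 10. With at least 5 cells, *Creb5* was at 49.3 and 65.2 CPM in steady state and at 121 to 220.5 CPM after injury, a log2 difference of 1.64 (SE 0.55) that did not pass (adjusted p = 0.198). Sublining-like cells of the same steady-state libraries were higher, at 153 to 154 CPM. The steady-state sums were unlike each other, with FLS markers at 22002 and 2695 CPM and chondrocyte markers at 173 and 4129 CPM, against 7650 to 16984 CPM and 21.9 to 215 CPM in the 4 injured libraries. Of the 117 cells of the class, 75 held just the number of markers needed. The direction was opposite to that in sublining-like cells, on few cells, and the difference was not tested.

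In tenocyte-like cells *Foxo1* was at 100.2 CPM in the 1 Tom+ steady-state library with enough cells and at 15.9, 7.92 and 12.6 CPM in Tom+ injured 1, 2 and 4. In Tom-GFP+ it was at 63.1 CPM before and 8.83 and 4.18 CPM after injury. The steady-state sums lay above all injured sums in both lineages, on 16 and 9 UMIs. In Tom-GFP+ the log2 change was -3.09 (SE 0.81, adjusted p = 0.0763), and 0 of 4 genes tested were called by edgeR, beside 1.43% of all genes, while 1 had an unadjusted p below 0.05 and DESeq2 called 0. Of all 7476 genes tested there, 1129 had an unadjusted p below 0.05. In Tom+ no test was run, since classes with 1 library in a Tom+ group were left untested. Other markers moved in the same sums. Those of injury-induced-like cells went from a sum of 150 CPM to 8600 to 9217 CPM after injury in Tom+ and from 302 CPM to 4885 and 6062 CPM in Tom-GFP+. Chondrocyte markers summed to 5877 and 5016 CPM before, and to 348 to 800 CPM and 461 and 498 CPM after. Of the 197 tenocyte-like cells, 86 fell into the injury-induced-like cluster when cells were clustered. Their part in the *Foxo1* values was not tested.

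Osteoblast-like cells of the Tom+ lineage had *Sox5* at 76.6 and 87.4 CPM before and at 29.6 and 33.2 CPM after injury (log2 -1.23, SE 0.39, adjusted p = 0.105). In the same sums chondrocyte markers were at 1635 and 846 CPM before and 10546 and 3303 CPM after, and injury-induced markers at 1098 and 1016 CPM before and 3598 and 3037 CPM after, and their part in the result was not tested. There 0 of 6 genes passed by edgeR, beside 3.61% of all genes, and DESeq2 called 0. An unadjusted p below 0.05 was held by 1 of the 6 and by 1216 of 8012 genes.

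Between the lineages in injured joints no gene of the 6 passed by edgeR in any of 4 classes. In sublining-like cells the background was 0.015% of genes, where 0 of 6 had an unadjusted p below 0.05 and DESeq2 called 0. In FLS-like cells it was 0.00891%, with 1 of 6 at that unadjusted level (*Dlx3*, log2 0.65, SE 0.29) and 0 called by DESeq2, and in tenocyte-like cells it was 0.0401%, with 0 of 4 and 0 by DESeq2. At that unadjusted level were 803 of 13341 genes in sublining-like, 397 of 11220 in FLS-like and 465 of 7476 in tenocyte-like cells. In injury-induced-like cells, where 0.228% of genes passed, 3 of 5 had an unadjusted p under 0.05, beside 720 of 11422 genes. Of the 5, 0 passed by DESeq2. *Sox5* was at 27.1, 42.3, 29.9 and 23.2 CPM in Tom+ injured 1 to 4 and 11.5 and 8.48 CPM in Tom-GFP+ injured (log2 1.53, SE 0.32, adjusted p = 0.142). *Creb5* (0.69, SE 0.22, adjusted p = 0.489) and *Dlx3* (2.85, SE 0.81, adjusted p = 0.370) were also on the Tom+ side. In these sums the FLS markers were at 2229, 1061, 935 and 534 CPM in Tom+ injured 1 to 4. They were at 314 and 671 CPM in Tom-GFP+ injured 1 and 2, and their part was not tested.

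Genes linked to these factors by family or pathway were counted in Tom+ sublining-like and FLS-like cells. Of 18 known FOXO targets tested in sublining-like cells, 3 fell with injury and 1 rose, beside 11.1% of all 13341 genes tested (896 lower and 585 higher). *Txnip*, an inhibitor of thioredoxin and glucose uptake, was at 282 CPM before and 71.9 CPM after injury (log2 -1.97, SE 0.19, adjusted p = 6.31e-05). *Cat*, the catalase gene, was at 100.1 and 50.0 CPM (log2 -1.01, SE 0.17, adjusted p = 0.00241), and *Sesn1*, a stress-induced sestrin, at 38.7 and 24.4 CPM (log2 -0.68, SE 0.20, adjusted p = 0.0461). *Sod2*, the mitochondrial superoxide dismutase, rose from 60.7 to 121 CPM (log2 0.98, SE 0.22, adjusted p = 0.0136). The median log2 change of the list was -0.26, beside -0.01 over all genes tested. In FLS-like cells *Gabarapl1*, an autophagy gene (log2 -0.78, SE 0.19, adjusted p = 0.0374), and *Klf2*, a transcription factor gene (log2 -0.86, SE 0.21, adjusted p = 0.0414), fell, 2 of 18 beside 3.02% of all genes tested. Here the list's median was -0.42, beside 0.03 over all genes.

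Of the PI3K and AKT genes upstream of FOXO, 1 of 11 tested in sublining-like cells fell, *Akt2* (log2 -0.76, SE 0.19, adjusted p = 0.0202), a share no higher than the 11.1% of all genes, and 0 of 12 passed in FLS-like cells. The list's medians were -0.05 and -0.12. In the CREB and ATF family 1 of 10 rose in sublining-like cells, *Crem* (log2 0.84, SE 0.24, adjusted p = 0.0407), from 18.9 to 33.9 CPM, again beside 11.1%, and 0 of 10 passed in FLS-like cells. The medians were 0.18 and 0.07. Neither *Foxo4* nor *Sox13* passed in either class (*Foxo4* log2 -0.29 in sublining-like and -0.05 in FLS-like cells, *Sox13* -0.08 and -0.56).

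In the DLX family, *Dlx5*, a bone-forming homeobox gene, fell in sublining-like cells (log2 -1.81, SE 0.31, adjusted p = 0.00294), 1 of 2 tested, and 0 of 2 passed in FLS-like cells. Levels of the family split by class. *Dlx4*, a neighbour of *Dlx3* in its gene pair, was at 35.9 CPM ± 8.14 (n = 8) in FLS-like and 2.44 CPM ± 1.95 (n = 9) in sublining-like cells, with no overlap, while *Dlx5* was at 2.60 CPM ± 2.06 in FLS-like and 224 CPM ± 168 (n = 5) in osteoblast-like cells.

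Of the cartilage genes of the Sox trio, 0 of 10 tested in sublining-like cells and 0 of 9 in FLS-like cells passed, with medians of 0.67 and -0.41. Of 14 lining genes, 4 rose and 1 fell in FLS-like cells, beside 3.02% of all genes. *Hbegf*, a growth factor gene, rose from 934 to 2147 CPM (log2 1.28, SE 0.21, adjusted p = 0.00485), and the sugar nucleotide genes *Uap1* (log2 1.31, SE 0.20, adjusted p = 0.00229) and *Ugp2* (log2 0.84, SE 0.16, adjusted p = 0.00976) and the clotting factor gene *F13a1* (log2 0.89, SE 0.19, adjusted p = 0.0206) also rose. *Itga6*, an integrin gene, fell (log2 -0.82, SE 0.20, adjusted p = 0.0380). The median of these 14 was 0.38, and several of them are markers of the FLS gate. In sublining-like cells 2 of 14 rose, near the 11.1% of all genes called in either direction: *Col22a1* (from 0.181 to 13.2 CPM, adjusted p = 0.0256) and *Hbegf* (from 6.53 to 68.0 CPM, adjusted p = 0.0276), both beside the higher FLS marker sums given above.

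The genes most like each factor were found by Pearson correlation of log2(CPM + 1) over the means of 10 classes, among 13343 genes, as a description. The classes share libraries and depth, and 1 class alone can set such an r. *Foxo1* was nearest to *Tcta* (0.946), *Chst15* (0.940) and *Trappc2* (0.932). *Creb5* was nearest to the FLS marker *Htra4* (0.938), *Rtn1* (0.929) and *Snapin* (0.926), and *Sox5* to *2810032G03Rik* (0.952), *Ctgf* (0.952) and *Enho* (0.943). *Dlx3* was nearest to *Psmc5* (0.972), *Lrrn2* (0.953) and *Fam135a* (0.951). All of these were highest in FLS-like cells. *Sox6* was nearest to *Bbc3* (0.952), *Pithd1* (0.945) and *Phf1* (0.938), highest in chondrocyte-like cells, and *Foxo3* to *Tmie* (0.964), *Col25a1* (0.958) and *9130024F11Rik* (0.954), highest in osteoblast-like cells.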

How the data were processed

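The deposited values are raw UMI counts per gene and cell barcode from the 10x Genomics 5' kit, read from 9 matrices that the authors had already limited to called cells. The headers of 5 libraries name Cell Ranger 3.0.2 and the submitters' notes name GRCm38.p6, while the version for the other 4 libraries and the annotation are not given in the sources used here.

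Barcodes under 500 genes or 1000 UMIs, or with over 10% of UMIs from mitochondrial genes, were dropped. They were gated into classes by the number of markers with a UMI, with thresholds set after seeing marker counts and with the 6 genes in no marker list. UMIs were summed per library and class with at least 10 cells. Doublets were kept, and the cells in the top 5% of Scrublet scores (scanpy 1.11.5) were left out in an alternative. Clusters for the alternative of classes from clusters came from Seurat 5.3.0. Sums were tested with edgeR 4.0.16 in R 4.3.3 (TMM, filterByExpr with a minimum count of 5, quasi-likelihood test, Benjamini-Hochberg over all genes tested, threshold 0.05), with DESeq2 1.42.0 as an alternative. The standard error (SE) is the log2 fold change divided by the square root of F. Tested on simulated counts at a dispersion of 0.1, the sublining-like comparison recovered 5.10% of genes changed 2-fold and 57.6% of genes changed 4-fold. Of the genes it called, 6.06% had not been changed. The dispersion was set and not estimated from the libraries, so these shares need not hold for the 6 genes. CPM differences within a library used a pseudocount of 1 CPM.

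The 6 genes and all lists were chosen with earlier results of these data known. Named were the 6 genes, every gene of the lists that was called, *Foxo4* and *Sox13*, and the 3 genes most like each factor. A plan to name the 4 genes of smallest p in each list was not followed for most genes that were not called. Levels of *Sox9*, *Sox13*, *Dlx4* and *Dlx5* were added with their values known. Alternatives covered scaling, filters, cell minimum, gating, cycling cells, file format, replicate block and each library left out. The fits of universal F4 and of other sublining-like cells were added after seeing the data. A value counts as reversed where its sign is opposite and it either involves a call or differs from the reported value by more than 1 SE.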

Additional observations from a re-analysis of the deposited data

Results flagged for a closer look

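Injury effects of opposite sign in separate classes of the Tom+ lineage stood out for *Foxo3* and *Sox5*. For *Foxo3* every injured library lay above the steady-state mean in *Thy1*+ sublining-like cells (log2 0.58) and below it in osteoblast-like cells (log2 -0.23). For *Sox5* every injured library lay above the steady-state mean in FLS-like cells (log2 0.46) and below it in osteoblast-like cells (log2 -1.23). None of these 4 effects passed by edgeR, and the differences between the classes were not tested. The osteoblast-like values rest on 2 steady-state and 2 injured libraries. Of 24 groups of 4 libraries tested for a sample far from the others, 0 held one.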

How the results depend on the processing

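The order of the levels in FLS-like and sublining-like cells rests on deep sums for *Foxo1*, *Creb5* and *Sox5*. Some of these sums hold few UMIs of *Sox6*, *Foxo3* or, in sublining-like cells, *Dlx3*, and sums of rarer classes hold few UMIs of these genes. Depth limits the single-cell shares: the mean over libraries in FLS-like cells, as reported at 3000 UMIs, moved for *Foxo1* from 45.1% to 29.7%, 55.9% and 84.0% with 2000 UMIs, 5000 UMIs and no thinning, for *Creb5* from 59.5% to 48.2%, 75.1% and 97.4%, for *Sox5* from 48.4% to 34.2%, 65.4% and 91.4%, for *Foxo3* from 4.29% to 7.08% at 5000 and 22.5% unthinned, for *Sox6* from 2.72% to 5.99% and 16.9%, and for *Dlx3* from 22.8% to 66.3% unthinned.

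Of the 6 genes, the number called in Tom+ sublining-like cells with injury, 2 as reported, was 1 with classes from clusters, with file format as a block, in universal F4 cells and in the other sublining-like cells, 0 in libraries of the 2-column format, and 0 to 2 without single libraries. The number called went from 0 to 1 with no low-count filter in Tom-GFP+ sublining-like (also without cycling cells) and tenocyte-like cells, in the lineage comparison of injury-induced-like cells and in the difference between FLS-like and sublining-like effects, where merging injury-induced-like cells, the format block and the 2-column libraries also gave 1. It ranged from 0 to 1 in these Tom-GFP+ and FLS-like tests without single libraries. Injury-induced-like cells against sublining-like cells went from 0 to 2 with no filter, 2 with at least 20 cells and 4 with classes from clusters (0 to 1 without single libraries). Mural-like cells went from 2 to 1 with DESeq2, at least 20 cells, no cycling cells or merged injury-induced-like cells (0 to 2 without single libraries). Tenocyte-like cells went from 2 to 1 with DESeq2 size factors, at least 20 cells, stricter filters, no top doublet scores or merged cells (1 to 2 without single libraries). With classes from clusters both tenocyte-like calls, *Creb5* and *Sox5*, were lost and the 1 gene called was *Sox6*, which turned from a value that was not called to a higher level (log2 1.92, adjusted p = 0.0188). The cause was not tested.

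Other signs turned for values that were called in neither setting. With classes from clusters these were *Sox6* in Tom+ sublining-like cells with injury (log2 -0.28) and *Sox5* between lineages in tenocyte-like cells (0.73). *Sox6* turned in mural-like cells with stricter filters (-0.99). Without single libraries, *Dlx3* ranged from -2.95 to 3.07 for injury in Tom-GFP+ sublining-like cells, from -2.16 to 3.83 for the difference between lineages in that effect and from -0.00031 to 1.47 in chondrocyte-like cells. *Foxo3* ranged from -0.38 to 0.32 and from -0.84 to 0.64 between lineages in sublining-like and tenocyte-like cells and from -0.10 to 1.23 in chondrocyte-like cells, *Creb5* from -0.12 to 1.11 between lineages in tenocyte-like cells, and *Sox6* from -4.95 to 1.17 in mural-like cells.

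The difference between replicates 1 and 2 in sublining-like cells was correlated between groups over 7713 genes. Pearson r was 0.08 for Tom+ steady state and Tom+ injured, and -0.08 for Tom+ steady state and Tom-GFP+ injured. For Tom+ injured and Tom-GFP+ injured it was 0.05. Later replicates of Tom+ injured were not used. These low values do not settle whether same-numbered libraries belong together. With a replicate block, the number of the 6 genes called went from 2 to 1 in Tom+ sublining-like cells with injury (*Creb5* log2 -0.60, adjusted p = 0.135, with 996 in place of 1481 genes called) and from 0 to 1 between lineages in injury-induced-like cells (*Sox5* log2 1.58, adjusted p = 0.0232, with 285 in place of 26 genes called), and no other call on the 6 genes moved in the comparisons with such a fit.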
